A study of Danio rerio with 7 samples.

Results

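Rab GTPases and the vesicle traffic they direct were followed in zebrafish melanomas, as all genes whose name begins with rab and a number. This rule found 81 genes of the 24725 in both data sets, 80 of 20402 in sorted tumor cells and 75 of 20141 in single cells, with 74 in both. They comprised 69 Rab GTPases and 12 partner genes (*rab3gap*, *rab3ip*, *rab3il1*, *rab5if* and *rab11fip* genes) that share only the start of their name with the family. The GTPases were grouped by where they act: 5 melanosome Rabs (*rab27a*, *rab27b*, *rab32a*, *rab38b* and *rab38c*), 16 of the endoplasmic reticulum (ER) and Golgi, 21 of early and recycling endosomes, 5 of late endosomes and lysosomes, 12 of secretion, 2 of lipid droplets, 1 of the cilium, and 7 others.

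Rab proteins are small GTPases that mark the identity of a membrane. In the GTP-bound form a Rab sits on its membrane and recruits motors, tethers and coats, and after GTP hydrolysis it leaves the membrane. In pigment cells of mice and humans, Rab32 and Rab38 bring melanin-synthesizing enzymes from endosomes to the melanosome, the organelle that makes and stores melanin, and Rab27a links the mature melanosome to the myosin Va motor through melanophilin.

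Tumors were made by TEAZ, in which plasmids are electroporated into the skin of adult zebrafish (3 to 6 months old). All fish of the series were casper (mitfa-/-;mpv17-/-) and carried mitfa:BRAFV600E and p53-/-, so that the host skin had no melanocytes of its own. All received MinicoopR-tdT, which restores *mitfa* and marks the cells with tdTomato, together with mitfa:Cas9, Tol2 and the guide plasmids U6:sgptena and U6:sgptenb against *ptena* and *ptenb*. The sorted cells were tdTomato+ cells with the additional plasmid U6:sgNT, a non-targeting guide (sgNT, n = 3 libraries), or U6:sgdgat1a (sgDGAT1a, n = 3), a guide against *dgat1a*, which encodes an enzyme of triacylglycerol synthesis. Guides and Cas9 act in a mosaic of cells, and the study's targeted sequencing found edited and unedited cells together in these tumors. The labels do not say whether a library came from 1 fish or several, so that the p-values below measure the spread between libraries. The single cells were tumor and adjacent tissue of 6 fish (3 male, 3 female) at 3 months after TEAZ, without a *dgat1a* or sgNT guide, pooled into 1 droplet library of 3968 cells.

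The sorted values are normalized counts, and the depth of each library is unknown. The targeted gene followed its label. *dgat1a* was at 799, 747 and 405 normalized counts in sgNT and at 216, 231 and 240 in sgDGAT1a, a log2 fold change of -1.44 ± 0.32 (SE; limma adjusted p = 0.0265). The exact two-sided permutation test over 3 against 3 libraries gave p = 0.1, the smallest it can give. Libraries 1 and 2 of each group stood closest to each other (r = 0.962 in sgNT and 0.963 in sgDGAT1a, across genes, which are not independent). sgNT 3 was as far from them (0.887 and 0.888) as from sgDGAT1a 1 (0.885), and sgDGAT1a 3 was at 0.903 and 0.900 from its own group. The libraries also carried different amounts of transcripts used here as markers of other cell types. The melanophore markers *mitfa* and *sox10* were present in all 6 libraries, with *sox10* at 16015 to 21143 normalized counts in sgNT and 8885 to 10506 in sgDGAT1a. The summed keratinocyte markers (*krt4*, *krt5*, *cdh1* and *epcam*) ranged from 8778 to 51985 in sgNT and from 99357 to 142631 in sgDGAT1a, with 3 of 4 markers called higher. *krt4* and *cdh1* were not particular to keratinocytes. In the single cells *krt4* was at 8.23 corrected counts per invasive melanoma cell and 3.43 per microenvironment cell, and *cdh1* at 5.53 per stressed melanoma cell and 1.36. *krt5* and *epcam* were at 27.6 and 5.18 per microenvironment cell and at most 0.147 and 0.039 in any melanoma state. Fibroblast markers were called higher for 4 of 4, muscle markers for 3 of 3, and erythrocyte and endothelial markers for 2 of 3 each, whereas macrophage markers were called for 0 of 5, with sums of 50527 to 61878 in sgNT and 58354 to 79809 in sgDGAT1a. In bulk samples, fewer cells of a type and less RNA per cell cannot be told apart.

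In the sorted cells, few Rab genes passed the test. Among the 73 Rab genes with a mean of at least 10 normalized counts, 1 was called higher in sgDGAT1a (*rab11al*) and 3 were called lower (*rab34b*, *rab1bb* and *rab15*), where a call needs an adjusted p under 0.05 together with a change of more than 1 on the log2 scale. Of all 16969 genes tested, 8.70% were called higher and 3.31% lower, or 12.0% together. With no limit on the fold, 5 Rab genes passed, 2 higher and 3 lower, the fifth being *rab13*, beside 13.2% of all genes (8.93% higher and 4.23% lower). The groups did not overlap for 27 Rab genes, 14 higher and 13 lower in sgDGAT1a, beside 36.9% of all genes. The median log2 fold change of the 73 genes was -0.16, with 30 above and 43 below 0, beside a median of 0.02 over all genes, of which 51.0% were above and 49.0% below 0. The other 7 (*rab33a*, *rab11fip4a*, *rab25b*, *rab42a*, *rab26*, *rab3b* and *rab3db*) were below the limit of 10 and were not tested.

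**Figure D1:**
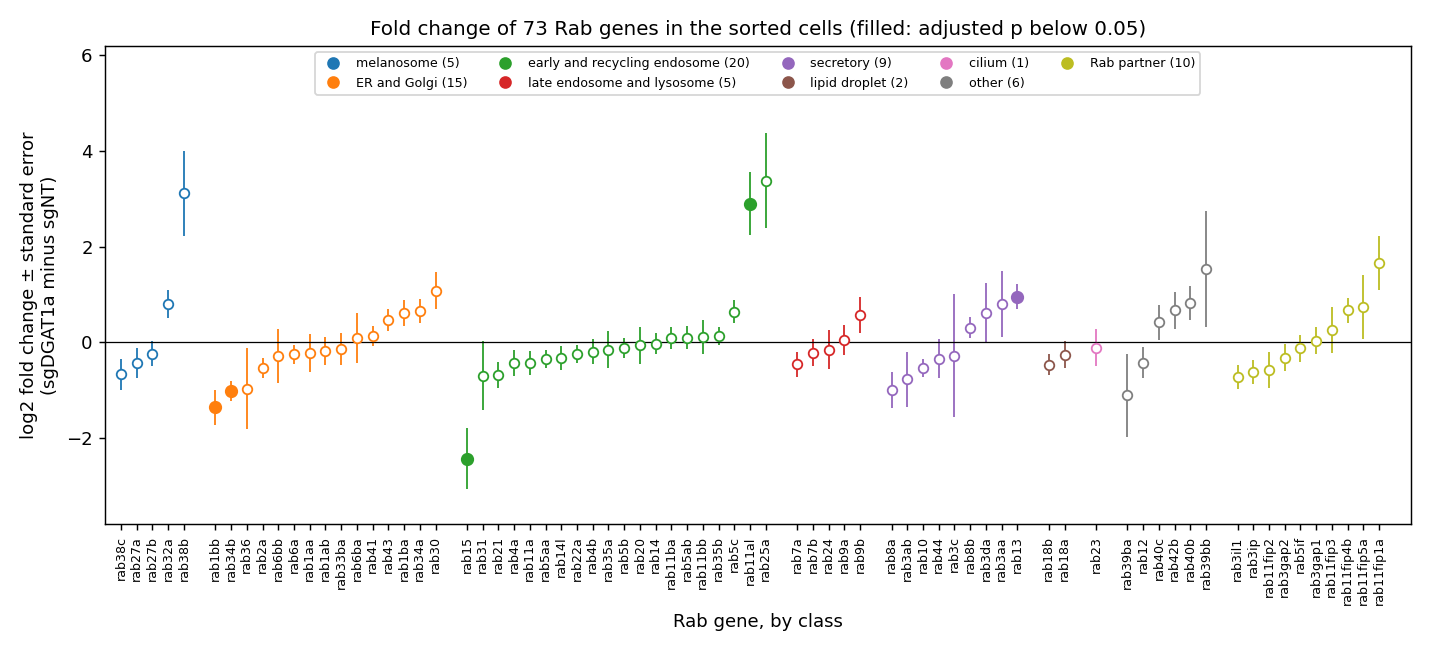
Log2 fold change (sgDGAT1a minus sgNT, on the log2(normalized count + 1) scale) of the 73 tested Rab genes, grouped and colored by class, with bars of 1 standard error and filled points for adjusted p below 0.05. Most genes lie within 1 of 0, and the 5 filled points are *rab11al*, *rab13*, *rab1bb*, *rab34b* and *rab15*.

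The calls rested on most of the libraries. No Rab gene was called when sgNT library 1 or 2, or sgDGAT1a library 1 or 2, was left out, whereas 6 were called higher and 5 lower without sgNT library 3, the control library with the highest keratinocyte markers. The calls over all 16969 genes changed as well. They were 341 higher and 51 lower without sgNT 1, 388 and 82 without sgNT 2, and 2845 and 1362 without sgNT 3. Without sgDGAT1a 1 they were 152 and 58, and without sgDGAT1a 2 they were 81 and 28. Without sgDGAT1a library 3, 2 Rab genes were called higher and 1 lower, beside 1074 and 522 of all genes. With libraries 1 and 2 of each group averaged, 0 Rab genes were called, and 0 of all genes were, so that this 0 says nothing of Rab genes in particular. With a constant prior variance in limma, 0 Rab genes were called, beside 1119 higher and 315 lower of all genes.

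The melanosome Rabs did not move together. *rab32a* was at 749, 925 and 1529 normalized counts in sgNT and at 1727, 1599 and 2002 in sgDGAT1a. Every sgDGAT1a library was above every sgNT library, with the nearest pair being sgNT 3 and sgDGAT1a 2, yet the log2 fold change of 0.79 ± 0.29 did not pass the test (limma adjusted p = 0.101). *rab38b* was at 2.0, 4.3 and 13.4 normalized counts in sgNT and at 76.3, 77.3 and 23.5 in sgDGAT1a. These groups did not overlap either, but library 3 of each group lay nearest to the other group, and the log2 fold change of 3.12 ± 0.88 had an adjusted p of 0.0530 in limma.

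The other melanosome Rabs had values on the opposite side of 0. *rab38c*, a second Rab38 gene, was at 553, 497 and 678 in sgNT and 268, 315 and 540 in sgDGAT1a (log2 fold change -0.68 ± 0.32, limma adjusted p = 0.185). *rab27a* was at 524, 498 and 609 in sgNT and 271, 416 and 569 in sgDGAT1a (-0.43 ± 0.31, adjusted p = 0.379). *rab27b* was at 553, 656 and 567 in sgNT and 398, 497 and 629 in sgDGAT1a (-0.24 ± 0.25, adjusted p = 0.558). For all 3 genes the groups overlapped, and sgDGAT1a 3 was the library of its group within the sgNT range. The median of the 5 melanosome Rabs was -0.24, with 0 called by limma and 2 (*rab32a* and *rab38b*) at an unadjusted p under 0.05, which 31.9% of all genes tested had.

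**Figure D2:**
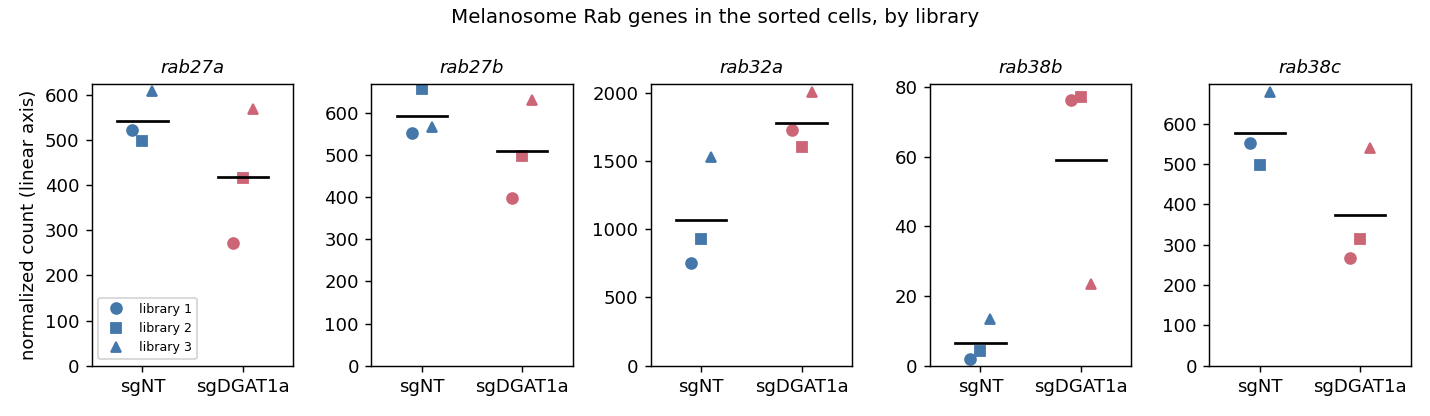
Normalized counts (linear axis from 0) of the 5 melanosome Rab genes in each sorted library, with 1 point per library, marker shape for the library number, and a line at the mean of the 3 libraries. *rab32a* and *rab38b* do not overlap between sgNT and sgDGAT1a, whereas *rab27a*, *rab27b* and *rab38c* do.

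Beside these Rabs, the markers of melanophores went both ways. *tyrp1b*, a melanin-synthesis enzyme that Rab32 and Rab38 are known to carry in mice, was called higher in sgDGAT1a (log2 fold change 2.92 ± 0.78, limma adjusted p = 0.0449), with sgDGAT1a 3 far above the rest at 272075 normalized counts. *sox10* passed the test and was lower (-0.88 ± 0.22, adjusted p = 0.0381), and *mitfa* had a value of -0.86 ± 0.27 (adjusted p = 0.0704). Of 32 other genes of melanosome transport and biogenesis, 2 were called lower and 0 higher, beside 3.31% and 8.7% of all genes. The 2 called genes were *myo5aa*, a zebrafish gene for the myosin Va motor that carries melanosomes, at 1492, 1271 and 1233 in sgNT and 503, 435 and 803 in sgDGAT1a (-1.24 ± 0.27, limma adjusted p = 0.0264), and *lyst*, which controls the size of lysosome-related organelles, at 1886, 1475 and 1793 in sgNT and 561, 618 and 974 in sgDGAT1a (-1.29 ± 0.26, adjusted p = 0.0214). For both, the groups did not overlap and sgDGAT1a 3 lay nearest to sgNT. The median of the 32 genes was -0.16.

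Among Rabs of the ER and Golgi, 2 of 15 were called, both lower, beside 3.31% of all genes called lower. *rab34b*, one of 2 zebrafish genes for Rab34, which acts at the Golgi, in lysosome positioning and in cilium formation in mammals, was at 6160, 5747 and 6249 normalized counts in sgNT and at 2824, 2549 and 3629 in sgDGAT1a. The 2 ranges lay far apart and the log2 fold change was -1.03 ± 0.21 (limma adjusted p = 0.0212). The other copy, *rab34a*, was at 263, 300 and 271 in sgNT and 380, 434 and 499 in sgDGAT1a (0.64 ± 0.25, adjusted p = 0.121), again with no overlap but with sgDGAT1a above. In the single cells *rab34b* was at 0.793 corrected counts per melanoma cell and 0.019 per microenvironment cell, and *rab1bb* at 0.143 and 0.034. *rab15*, also called lower, had 45 corrected counts in melanoma cells and 1 in the microenvironment. For these called genes, fewer melanoma cells in a library and less RNA per cell cannot be told apart.

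*rab1bb*, a gene for Rab1, which directs transport from the ER to the Golgi, was at 574, 518 and 383 in sgNT and 207, 267 and 120 in sgDGAT1a (log2 fold change -1.36 ± 0.36, limma adjusted p = 0.0448). Its copy *rab1ba* was at 1701, 1895 and 1186 in sgNT and 2015, 2085 and 3245 in sgDGAT1a (0.61 ± 0.27, adjusted p = 0.167). Near-identical copies such as these can share reads, and how the authors' counting divided them is not known. *rab2a*, the member of the class with the highest mean, was at 11006, 11285 and 8875 in sgNT and 6407, 7227 and 7864 in sgDGAT1a (-0.53 ± 0.21, adjusted p = 0.125). *rab30*, a Golgi Rab, was at 108, 155 and 154 in sgNT and 319, 411 and 188 in sgDGAT1a (1.08 ± 0.38, adjusted p = 0.0942). The class had a median log2 fold change of -0.18. Its groups did not overlap for 4 of 15 genes in each direction, beside 21.1% of all genes higher and 15.9% lower.

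Of 20 Rabs of early and recycling endosomes, 1 was called higher and 1 lower, beside 8.7% and 3.31% of all genes. *rab11al*, a gene of the Rab11 group that controls recycling endosomes, was at 40.3, 34.2 and 221 normalized counts in sgNT and at 594, 453 and 490 in sgDGAT1a (log2 fold change 2.89 ± 0.66, limma adjusted p = 0.0291). *rab15*, known from endosomes of mammalian neurons, was at 168, 120 and 108 in sgNT and at 44.3, 29.9 and 9.1 in sgDGAT1a (-2.44 ± 0.64, adjusted p = 0.0433). Neither gene overlapped between groups, and in *rab11al* sgNT 3 stood well above the other sgNT libraries. The abundant early endosome Rab *rab5aa* was at 8352, 9257 and 8409 in sgNT and 6341, 6976 and 6974 in sgDGAT1a (-0.36 ± 0.19, adjusted p = 0.237), and its relative *rab5c* was at 5404, 5599 and 6086 in sgNT and 7319, 8291 and 11508 in sgDGAT1a (0.64 ± 0.23, adjusted p = 0.0993). These related Rab5 genes thus had values on opposite sides of 0, each with no overlap between groups and neither past the test.

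*rab25a* and *rab11fip1a* shared the library pattern of *rab11al*. Rab25 is the epithelial member of the Rab11 group in mammals, and Rab11fip1 is an effector that binds Rab11 and Rab25. *rab25a* was at 4.1, 32.5 and 113 in sgNT and at 319, 216 and 319 in sgDGAT1a (log2 fold change 3.38 ± 0.99, limma adjusted p = 0.0578). *rab11fip1a* was at 39.9, 33.3 and 99.7 in sgNT and 269, 160 and 99.95 in sgDGAT1a (1.65 ± 0.57, adjusted p = 0.0884). In all 3 genes sgNT 3 was the highest sgNT library, as it was for the summed keratinocyte markers, at 8778, 9825 and 51985 in sgNT and 142631, 99357 and 119924 in sgDGAT1a. The same held for the summed muscle markers, at 403, 513 and 2669 in sgNT and 34607, 40306 and 13053 in sgDGAT1a. Endothelial, fibroblast, macrophage and melanophore sums also had sgNT 3 as the highest sgNT library, whereas T cell, neutrophil and erythrocyte sums did not. The pattern was thus not particular to keratinocyte markers. The part of keratinocyte or other transcripts in these values was not tested.

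**Figure D3:**
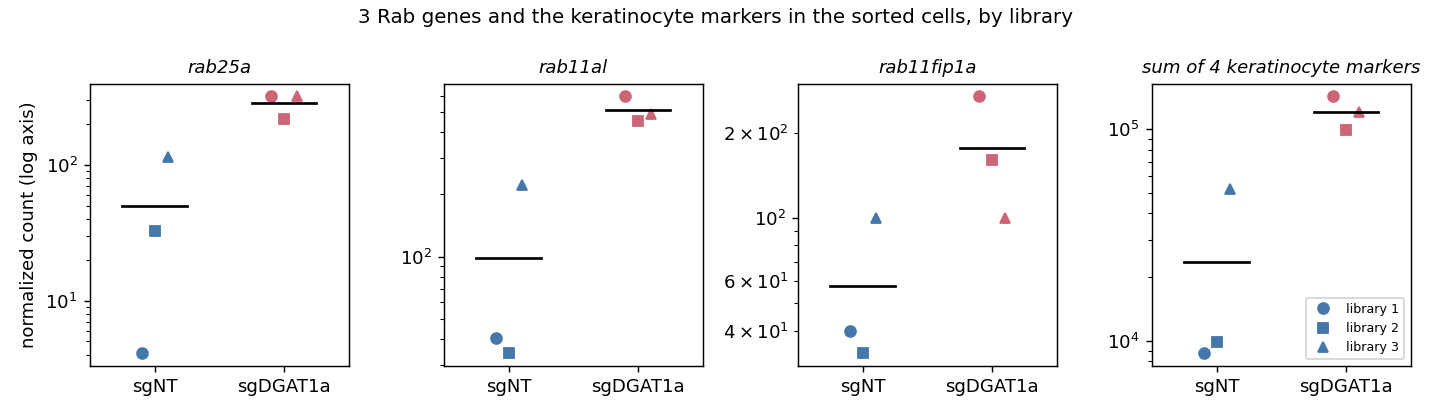
Normalized counts (log axis) of *rab25a*, *rab11al*, *rab11fip1a* and the sum of 4 keratinocyte markers in each sorted library, with 1 point per library, marker shape for the library number, and a line at the mean of 3 libraries. In each panel sgNT 3 is the highest sgNT library and lies below every sgDGAT1a library, by the narrowest margin in *rab11fip1a* (99.7 against 99.95). The summed muscle markers, not drawn, have sgNT 3 in the same place.

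Among 9 tested secretory Rabs, 1 passed the adjusted p, beside 13.2% of all genes. *rab13*, which delivers proteins to tight junctions in mammalian epithelia, was at 539, 509 and 355 in sgNT and 971, 963 and 763 in sgDGAT1a (log2 fold change 0.96 ± 0.25, limma adjusted p = 0.0448), and rose by slightly less than the 2-fold limit of a call. *rab8a*, which acts from the Golgi to the plasma membrane and cilium, was at 477, 512 and 306 in sgNT and 303, 229 and 135 in sgDGAT1a (-0.99 ± 0.38, adjusted p = 0.113). *rab10*, which directs secretory carriers and has the highest mean of the class, was at 6035, 5504 and 6320 in sgNT and 4219, 4360 and 3729 in sgDGAT1a (-0.54 ± 0.19, adjusted p = 0.0936). The groups did not overlap for these 3 of the 9 genes, beside 36.9% of all genes. *rab3db*, a gene for Rab3, which acts in regulated exocytosis, was too low for the test. It was listed at 0 in the 3 sgNT libraries and at 29.5, 13.2 and 12.5 in sgDGAT1a.

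The late endosome and lysosome Rabs, the lipid droplet Rabs and the ciliary Rab had 0 calls by limma, with 0 of 8 at an unadjusted p under 0.05 (31.9% of all genes). *rab7a*, the main Rab of late endosomes and lysosomes, was at 3459, 3623 and 3755 in sgNT and 2208, 2115 and 3868 in sgDGAT1a, where library 3 lay above every sgNT library (log2 fold change -0.46 ± 0.26, limma adjusted p = 0.273). Both Rab18 genes, whose protein is known from the lipid droplet surface and the ER, overlapped between groups. *rab18a* was at 717, 482 and 911 in sgNT and 509, 570 and 630 in sgDGAT1a (-0.26 ± 0.28, adjusted p = 0.569). *rab18b* was at 2719, 2474 and 1904 in sgNT and 1531, 1606 and 1933 in sgDGAT1a (-0.48 ± 0.22, adjusted p = 0.176). The 95% interval of the log2 fold change ran from -0.98 to 0.03 for *rab18b*, which holds 0 as well as a fall of nearly 2-fold. *rab9b*, of the late endosome group, had a value of 0.56 ± 0.37 (adjusted p = 0.335), and *rab23*, a ciliary inhibitor of Hedgehog signaling, had -0.12 ± 0.38 (adjusted p = 0.866). Of the unclassed Rabs, *rab40b* and *rab40c*, which encode subunits of ubiquitin ligases, had values of 0.82 ± 0.36 (adjusted p = 0.158) and 0.41 ± 0.36 (adjusted p = 0.475), and *rab39ba* had -1.12 ± 0.86 (adjusted p = 0.414).

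Among 10 tested partner genes 0 were called by limma, with 4 at an unadjusted p under 0.05 (31.9% of all genes). *rab3il1* and *rab3ip*, which encode exchange factors that load Rab8 with GTP in mammals, were lower in every sgDGAT1a library than in every sgNT library. *rab3il1* was at 4143, 4143 and 2444 in sgNT and 2235, 2202 and 1875 in sgDGAT1a (log2 fold change -0.73 ± 0.26, limma adjusted p = 0.0931), and *rab3ip* was at 3492, 3342 and 5530 in sgNT and 2727, 2235 and 2842 in sgDGAT1a (-0.63 ± 0.25, adjusted p = 0.125).

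The machinery that Rabs work with was read from 10 lists of 246 genes, of which 242 were tested. Of these, 4 were called higher and 6 lower, beside the 8.70% and 3.31% of all genes. Of the Rab cycle genes, *rabggtb*, a subunit of the transferase that attaches the lipid anchor of Rabs, had a log2 fold change of -0.76 (limma adjusted p = 0.0653). DENN-domain exchange factors (18 tested), TBC-domain GTPase activators (38), exocyst subunits (12) and retromer and sorting nexin genes (37) had 0 called each by limma, with 27 of 105 at an unadjusted p under 0.05 (31.9% of all genes), and their medians lay between -0.20 and 0.06. With no limit on the fold, 4 of the 105 passed the adjusted p, all lower, beside 13.2% of all genes (4.23% lower). Each changed by less than 2-fold. *tbc1d5* (log2 fold change -0.81, limma adjusted p = 0.0285) and *rabgap1* (-0.79, adjusted p = 0.0400) encode activators of Rab GTP hydrolysis. The others were the sorting nexin genes *snx1a* (-0.998, adjusted p = 0.0262) and *snx12* (-0.71, adjusted p = 0.0439).

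The called genes of vesicle fusion and coats were mixed in direction. *vamp2*, a SNARE of regulated exocytosis, was at 828, 1202 and 345 in sgNT and 54.3, 57.9 and 47.4 in sgDGAT1a (log2 fold change -3.70 ± 0.47, limma adjusted p = 0.00742), and *vamp5* was at 7469, 7558 and 6020 in sgNT and 2548, 2901 and 3476 in sgDGAT1a (-1.24 ± 0.21, adjusted p = 0.0138). *vps11*, a core subunit of the HOPS and CORVET tethers that Rab7 and Rab5 recruit, was at 1894, 1944 and 1536 in sgNT and 758, 455 and 788 in sgDGAT1a (-1.46 ± 0.27, adjusted p = 0.0168). The groups lay well apart for these 3 genes. Of the COPI coat genes, *copg2* was called lower (-1.18 ± 0.26, adjusted p = 0.0256) and *copz2* higher (1.27 ± 0.25, adjusted p = 0.0204).

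*ap1m2*, the epithelial form of a subunit of the clathrin adaptor AP-1 in mammals, was at 13.9, 27.7 and 99.6 in sgNT and 351, 235 and 345 in sgDGAT1a (log2 fold change 3.13 ± 0.68, limma adjusted p = 0.0251), and *stx11b.1*, a SNARE gene, was at 18.2, 17.4 and 96.4 in sgNT and 485, 486 and 289 in sgDGAT1a (3.65 ± 0.67, adjusted p = 0.0165). The AP-1 subunit *ap1s3b* was also called higher (1.57 ± 0.41, adjusted p = 0.0423). In *ap1m2* and *stx11b.1*, as in *rab25a*, sgNT 3 was several times the other sgNT libraries. The summed keratinocyte markers and the summed muscle markers also had sgNT 3 as the highest sgNT library. The part of either cell type in these values was not tested.

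The single cells show where Rab genes were transcribed among tumor states that the authors annotated as melanocytic (579 cells), stressed (853), inflammatory (580), proliferative (333) and invasive (333), and in the tumor microenvironment, TME (1290). Values are corrected counts per cell, brought to a common depth by the authors. Each state was compared with the other 4 melanoma states pooled, as the log2 ratio of a gene's share of all corrected counts. All states come from 1 library, so there is no replicate and no test. Median raw UMIs per cell ranged from 7979 in invasive to 15141 in proliferative cells and were 5166 in the TME. *pmela*, the melanosome matrix protein, was at 41.7 corrected counts per melanocytic cell and at 0.63 to 5.68 in the other states, and *sox10* was at 2.71 to 3.55 in all 5 states and at 0.44 in the TME. *mitfa* was at 0.70 per inflammatory cell, below the 2.24 to 6.17 of the other states. Inflammatory cells also had the lowest *pmela* (0.63) and *tyrp1b* (0.16) of the 5 states, whereas their *dct* (0.20) was below only melanocytic cells (0.93). Ratios were taken for genes whose corrected counts summed to 50 or more in melanoma cells, which were 58 of 75 Rab genes and 11776 genes in all.

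The melanosome Rabs set the states apart. All 5 were higher in inflammatory cells than in the other states pooled (median log2 ratio 1.02), beside 32.6% of all genes with a median of -0.30. In melanocytic cells 4 of 5 were higher (median 0.73), beside 34.3% of all genes with a median of -0.26. All 5 were lower in stressed (median -1.16), proliferative (median -1.08) and invasive cells (median -2.43), where 55.6%, 57.2% and 52.9% of all genes were higher and their medians were 0.06, 0.11 and 0.04. In invasive cells all 5 were past 2-fold lower, beside 11.6% of all genes, with *rab27b* only just past it (log2 ratio -1.002). *rab38c* and *rab38b* were above 0 in only 1 and 2 of 310 invasive cells with at least 2000 raw UMIs. With a pseudocount of 5 per sum, only 4 Rab genes of any class were past 2-fold lower in invasive cells, so not all 5 melanosome Rabs were. In inflammatory cells 3 were past 2-fold higher, beside 6.86% of all genes, and in melanocytic cells 2 were, beside 5.43%.

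*rab32a* was the melanosome Rab with the widest range. It was at 2.08 corrected counts per inflammatory cell, 0.31 per melanocytic, 0.17 per proliferative, 0.05 per stressed and 0.04 per invasive cell, and at 0.27 in the TME. Its log2 ratio was 3.92 in inflammatory cells and -0.99 in melanocytic cells, so that the state with the most pigment transcripts lay below the pooled other states. Inflammatory cells held 80.7% of the *rab32a* counts of the melanoma cells and so dominated that pool. Melanocytic cells lay above the proliferative, stressed and invasive cells. Among cells with at least 2000 raw UMIs, *rab32a* was above 0 in 71.0% of 549 inflammatory cells (exact Clopper-Pearson 95% interval 67.0 to 74.8%), in 21.6% of 486 melanocytic cells (18.0 to 25.5%) and in 1.61% of 310 invasive cells (0.53 to 3.72%). Such intervals cover counting error only. Free RNA can add to such shares and was not measured. In TME cells with keratinocyte markers (median 9210 raw UMIs, described further on) the *rab32a* share was 12.6%, and its source was not tested.

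*rab38b* also had its highest mean among the melanoma states in inflammatory cells. It was at 0.090 corrected counts per inflammatory, 0.052 per melanocytic, 0.013 per stressed, 0.009 per proliferative and 0.006 per invasive cell (log2 ratio 2.04 in inflammatory and 0.73 in melanocytic cells), and was highest in the TME at 0.138. The share of cells above 0 was level between these 2 states, at 5.46% of 549 inflammatory cells (3.72 to 7.71%) and 5.35% of 486 melanocytic cells (3.52 to 7.74%). *rab38c* was nearly level between melanocytic (0.057) and inflammatory cells (0.053), with log2 ratios of 1.19 and 1.02, and was at 0.003 in invasive cells and 0.002 in the TME. The 2 Rab38 genes thus shared the melanoma states in which they were highest and differed in the TME.

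*rab27a* was highest in melanocytic cells. It was at 0.221 corrected counts per melanocytic, 0.126 per inflammatory, 0.091 per stressed, 0.060 per proliferative and 0.054 per invasive cell (log2 ratio 1.33 in melanocytic cells). It was above 0 in 20.2% of 486 melanocytic cells (95% interval 16.7 to 24.0%) and in 4.25% of 965 TME cells (3.07 to 5.72%). *rab27b* was at 0.324 per inflammatory, 0.297 per melanocytic, 0.220 per stressed, 0.189 per proliferative and 0.126 per invasive cell, and at 0.007 in the TME, a log2 ratio of -4.97 to the melanoma cells.

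**Figure D4:**
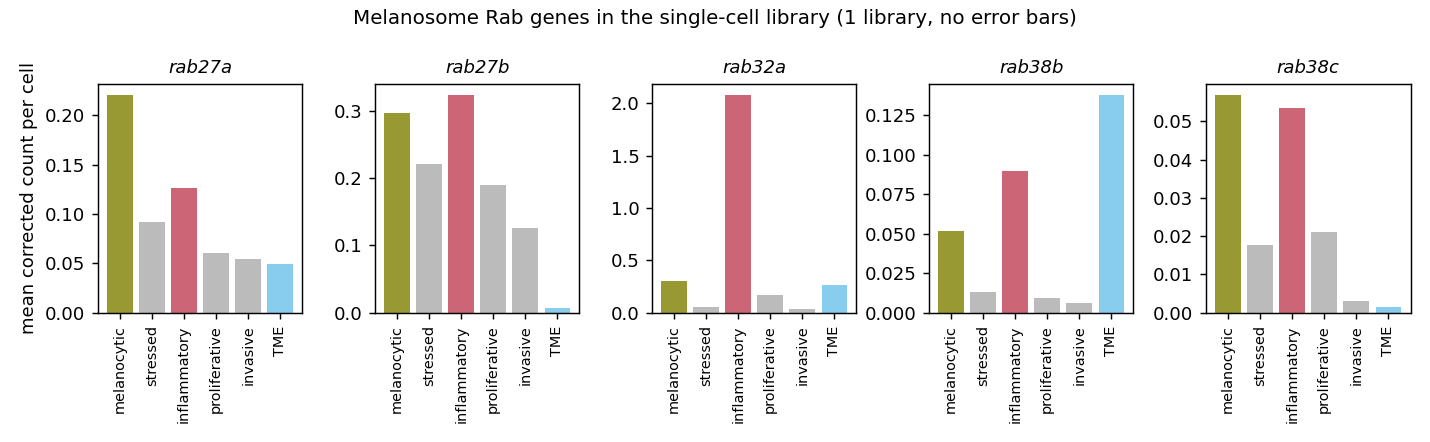
Mean corrected counts per cell (linear axis from 0, scaled for each gene) of the 5 melanosome Rab genes in the 5 melanoma states and the TME of the single-cell library. *rab32a* is highest in inflammatory cells at 2.08, *rab27a* in melanocytic cells at 0.221 and *rab38b* in the TME at 0.138, and all 5 genes are low in invasive cells.

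Among Rabs with at least 200 corrected counts, melanocytic cells had their highest ratio in *rab34b*, at 1.49 corrected counts per cell against 0.945 in stressed, 0.429 in inflammatory, 0.369 in proliferative and 0.243 in invasive cells (log2 ratio 1.35). It was above 0 in 69.5% of 486 melanocytic cells (65.2 to 73.6%) and in 1.55% of 965 TME cells (0.87 to 2.55%). The exchange factor gene *rab3il1* came next after *rab27a* under the same limit, at 0.494 per melanocytic cell and 0.159 to 0.260 in the other states (log2 ratio 1.15). In all, 6 of 58 Rab genes were past 2-fold higher and 3 past 2-fold lower in melanocytic cells, beside 5.43% and 17.8% of all genes.

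Under the same limit, the Rabs with the lowest ratios in melanocytic cells were *rab13*, at 0.073 corrected counts per cell and 0.212 to 0.375 in the other states (log2 ratio -1.91), *rab32a* (-0.99) and *rab22a*, of early endosomes (-0.85). For *rab32a* most counts of the pooled states came from inflammatory cells, and melanocytic cells lay above the remaining states. *rab3ab*, of regulated exocytosis, had the largest melanocytic ratio of all 58 genes (2.70), and was named after its values were seen. It was sparse, at 0.088 per melanocytic, 0.045 per proliferative and 0.015 or less in the remaining states, and was above 0 in 47 of 486 melanocytic cells.

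In inflammatory cells, after *rab32a*, *rab13* was highest among Rabs with at least 200 corrected counts (log2 ratio 0.90), and *rab1bb* (-1.57), *rab34b* (-1.04) and *rab5if* (-1.01) were lowest. Past 2-fold there were 4 higher and 6 lower of 58, beside 6.86% and 16.1% of all genes. *rab7a* also read higher, at 1.54 corrected counts per inflammatory cell, 1.33 per melanocytic, 1.13 per stressed, 0.874 per proliferative and 0.685 per invasive cell.

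Invasive cells held the highest level of 19 of the 58 Rab genes, melanocytic cells of 14, proliferative of 11, inflammatory of 10 and stressed of 4. The same count was not made over all genes, so whether these numbers are particular to Rab genes is not known. General Rabs made up most of the 19. In invasive cells 13 of 15 early and recycling endosome Rabs (median log2 ratio 0.32) and 9 of 12 ER and Golgi Rabs (median 0.48) were above 0, beside 52.9% of all genes. The levels moved little, however, with *rab2a* at 2.47 corrected counts per invasive cell and 1.43 to 1.73 in the other states, *rab10* at 2.06 and 1.02 to 1.45, and *rab1ab* at 1.71 within the 1.57 to 1.98 of the others. Past 2-fold there were 1 higher (*rab8b*, 1.02) and 9 lower of 58, beside 7.63% and 11.6% of all genes, and 5 of the 9 were the melanosome Rabs.

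In proliferative cells *rab23* (log2 ratio 0.77), *rab4a*, of fast endosomal recycling (0.64), and *rab5if* (0.52) were highest among Rabs with at least 200 corrected counts, and *rab32a* (-1.90), *rab34b* (-1.24) and *rab27a* (-1.08) were lowest. Past 2-fold there were 2 higher and 6 lower, beside 8.59% and 7.67% of all genes. Stressed cells had the fewest Rab genes past 2-fold when both directions are added, with 1 higher and 4 lower, beside 2.35% and 9.62% of all genes. Among Rabs with at least 200 corrected counts, their highest were *rab11bb* (0.71), *rab9a* (0.36) and *rab34b* (0.36), and after *rab32a* (-3.96) their lowest were *rab5c* (-0.57) and *rab27a* (-0.54). The lipid droplet Rabs were nearly level, with *rab18a* at 0.141 to 0.228 and *rab18b* at 0.221 to 0.315 corrected counts per cell over the 5 states.

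**Figure D5:**
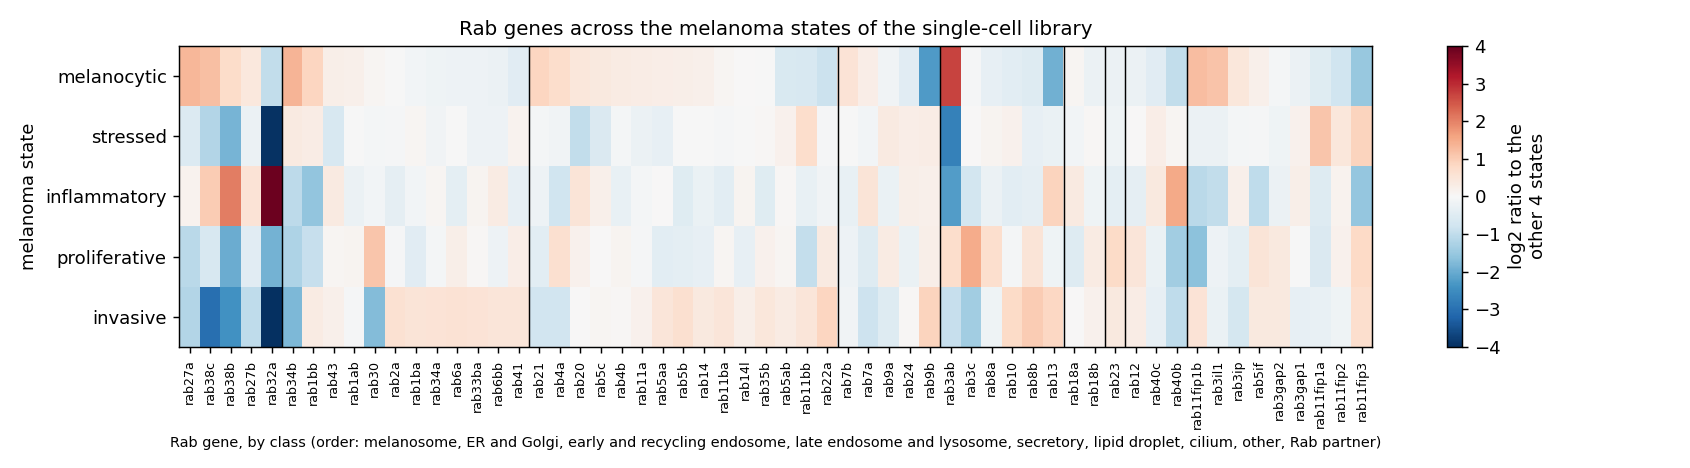
Log2 ratio of each of the 58 measured Rab genes in a melanoma state to the other 4 states pooled (red higher, blue lower, color scale from -4 to 4), with genes grouped by class between vertical lines. The melanosome group at the left is red in melanocytic and inflammatory cells, apart from *rab32a* in melanocytic cells, and blue in stressed, proliferative and invasive cells.

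The Rab genes of the TME were also set beside those of the melanoma cells. Against all melanoma cells, 16 of 58 Rab genes were higher, beside 22.4% of all genes, with 7 past 2-fold higher and 17 past 2-fold lower, beside 8.31% and 42.6%. The limit of 50 corrected counts was set on melanoma cells alone, so genes transcribed mainly in the TME could be left out. These counts, for Rab genes and for all genes, are thus weighted toward lower values and do not measure how the TME differs. Among Rabs with at least 200 corrected counts in melanoma cells, *rab8b* was highest, at 1.16 corrected counts per TME cell and 0.228 per melanoma cell (log2 ratio 2.42), with *rab22a* (0.82) and *rab5c* (0.54) next, and *rab34b* (-5.31), *rab27b* (-4.97) and *rab3ip* (-3.48) were lowest. The other 6 genes past 2-fold higher, *rab11fip1a* (2.34), *rab38b* (1.99), *rab7b* (1.51), *rab43* (1.49), *rab20* (1.45) and *rab11fip1b* (1.26), were below that limit. The other 17 Rab genes stayed under 50 corrected counts in melanoma cells, and among them *rab11fip4b* (788 in the TME against 43 in melanoma cells), *rab44* (482 against 10), *rab42b* (159 against 5), *rab11al* (152 against 31) and *rab25a* (101 against 3) had most of their counts in the TME.

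The annotation does not divide the TME, so its cells with at least 2000 raw UMIs were split, after the values were seen, by at least 3 keratinocyte markers (270 cells) or at least 3 macrophage markers (409 cells), with 282 cells that had neither. *rab25a* was at 0.374 corrected counts per keratinocyte-marker cell and above 0 in 24.8% of them (19.8 to 30.4%), and was above 0 in 0 of 409 macrophage-marker cells, where 3 counts of the 409, the limit set for a count of 0, give 0.733% and the exact Clopper-Pearson upper bound is 0.898%. *rab11al* (0.493 against 0.002) and *rab11fip1a* (0.574 against 0.007) had the same pattern, and *rab42b* was at 0.400 against 0.068. In the sorted cells *rab25a*, *rab11al* and *rab11fip1a* were the Rab genes set beside the keratinocyte markers above. *rab25a* was above 0 in at most 1 cell of any melanoma state.

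Several other TME Rabs read higher per macrophage-marker cell than per keratinocyte-marker cell. *rab8b* was at 2.73 corrected counts per macrophage-marker cell against 0.067 per keratinocyte-marker cell, *rab44* at 0.897 against 0.085, *rab7b* at 0.399 against 0.030, *rab20* at 0.325 against 0.041, and *rab11fip4b* at 1.19 against 0.607. *rab43* (0.213 against 0.233) and *rab11fip1b* (0.183 against 0.219) did not. In cells with neither set of markers *rab8b* was at 0.780 and *rab20* at 0.259. The melanosome Rabs *rab32a* and *rab38b* also read higher per macrophage-marker cell, at 0.619 against 0.178 and at 0.364 against 0.004. *rab38b* thus read higher per macrophage-marker cell than per inflammatory melanoma cell (0.090), whereas *rab32a* read lower than there (2.08). In the sorted cells the summed macrophage markers overlapped between groups, with *mpeg1.1* higher in every sgDGAT1a library (log2 fold change 0.69, limma adjusted p = 0.0687) and *marco* lower in every one (-0.68, adjusted p = 0.0594). *rab8b* (0.30, limma adjusted p = 0.382) and *rab44* (-0.35, adjusted p = 0.603) overlapped too, and *rab11fip4b* was higher in every sgDGAT1a library (0.66, adjusted p = 0.126). The part of macrophage transcripts in the values of *rab32a* and *rab38b* was not tested.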

How the data were processed

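For the sorted cells, the authors trimmed reads, estimated transcript counts with Salmon 1.4.0 on GRCz11 and normalized them with DESeq2 1.30.1. The deposited normalized counts have decimals (a signal) and gave back no whole reads, so depth is unknown and the count test allowed for in the design did not apply. Instead, limma 3.58.1 (R 4.3.3) was run on log2(normalized count + 1) with a trended prior variance over 16969 genes (mean 10 or more), with Benjamini-Hochberg adjustment. Lines that repeated an Ensembl ID (280 of 20682) were left out.

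For the single cells, the authors used Cell Ranger 6.0.2, dropped cells under 200 genes or above 30% mitochondrial UMIs, and applied SCTransform (Seurat 4.0.2). The deposited values are corrected counts, a score that is not a count of molecules (5400 to 9687 per cell). The deposited annotation gives states, raw UMI totals and the percent of mitochondrial UMIs. Ratios used 0.5 added per sum. The authors sorted cells by flow cytometry to remove debris and doublets before the cells were put into droplets. No doublet caller was run here, so droplets that took up more than 1 cell were not looked for. Cells with at least 2000 raw UMIs numbered 3467.

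The Rab genes, classes and lists were chosen with earlier results of these data known. Genes were named by a rule: *dgat1a*, the melanosome and Rab18 genes, members past the adjusted p, the highest mean and 2 largest changes of each class, the 3 highest and 3 lowest ratios of each state, and the 2 largest called changes of each list in each direction; others were named after their values were seen. The summary of the Rab cycle list is not reported here. The alternatives were other pseudocounts (0.5 and 10), filters and scalings, a replicate block, a constant prior variance, libraries left out singly, libraries 1 and 2 averaged, and for the single cells other cell and gene filters, weights and pseudocounts. Both procedures were tested on simulated data. Of 200 genes shifted by 3 on the log2 scale in simulated sorted libraries, 77% were called, as were 4 unchanged genes. The test can thus miss changes of that size. For 200 genes doubled in simulated melanocytic cells, the median log2 ratio was 0.98. Python 3.11.15 with numpy 2.4.6, pandas 2.3.3, scipy 1.17.1 and matplotlib 3.10.9 was used.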

Additional observations from a re-analysis of the deposited data

How the results depend on the processing

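In the sorted cells the calls changed with the libraries and the variance model. Rab genes called higher numbered 3 with a pseudocount of 10, 2 with no filter on low values, and 0 with a constant prior variance, and those called lower and those past the adjusted p were also 0 with a constant prior variance. With libraries 1 and 2 averaged, all these counts were 0, as were the count of called vesicle genes and the calls over all genes. Over all genes, 1755 were called higher and 611 lower with a pseudocount of 10. The numbers were 1431 and 517 with no filter, and 1119 and 315 with a constant prior variance. Leaving out each library in turn gave 0 to 6 called higher, 0 to 5 called lower, 0 to 18 past the adjusted p and 1 to 33 called vesicle genes, which numbered 16 with a pseudocount of 10. Over all genes the fits with a library left out called 81 to 2845 higher and 28 to 1362 lower. The replicate numbers did not pair the libraries (correlations of deviations -0.07, -0.05 and -0.14), and the fit with a replicate block gave 0 Rab genes called in either direction, 0 past the adjusted p and 1 vesicle gene called. Over all genes the fit with a replicate block called 366 higher and 116 lower. The log2 fold change of *dgat1a* was -1.44 with a constant prior variance (limma adjusted p = 0.0507) and with the replicate block (adjusted p = 0.0696), -1.27 with libraries 1 and 2 averaged (adjusted p = 0.288), and -1.75 to -1.26 with each library left out. *rab23* ran from -0.40 to 0.20 over the left-out libraries, turning above 0 without sgNT library 1. Quantile normalization moved the median of all genes from 0.02 to -0.12, with 1220 genes called higher and 793 lower in place of 1477 and 561, and left the number of Rab genes called in each direction within 1.5 times. Class medians over the left-out libraries ran from -0.47 to 0.34 for the secretory and from -0.41 to -0.08 for the melanosome Rabs. The cause of these changes was not tested.

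In the single cells, counts of Rab genes past 2-fold changed mostly through fewer genes measured. The same counts over all genes are not given for these settings, so whether the numbers are particular to Rab genes is not known. With at least 200 corrected counts per gene, the counts higher and lower were 3 and 1 in melanocytic, 0 and 1 in stressed, 1 and 3 in inflammatory, 0 and 3 in proliferative and 1 and 11 in TME cells, with 4 lower in invasive cells. With means of per-cell shares, 5 were lower in melanocytic and 2 higher in stressed cells. With at least 2000 raw UMIs, 0 were higher in stressed and 0 in invasive cells, and with equal weights 0 were higher in invasive cells. With a pseudocount of 5, 3 were lower in inflammatory, 3 lower in proliferative, and 3 higher and 4 lower in invasive cells.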
